A study of Mus musculus with 4 samples.

Results

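Broad H3K4me3 regions are stretches of at least 4 kb over which chromatin carrying trimethylated lysine 4 of histone H3 was enriched in mouse embryonic forebrain. They were chosen from the H3K4me3 tags themselves. On chromosomes 1 to 19, a bin of 1 kb was kept when it held at least 20 tags of the H3K4me3 chromatin immunoprecipitation (ChIP) and when its ChIP count plus 1 was at least 4 times the scaled count of its input plus 1. Kept bins separated by at most 1 other bin were joined. This gave 7991 regions, of which 279 were at least 4 kb wide, or 3.49%. Which regions reach 4 kb depends on where the bins start: with the bins moved by 0.5 kb there were 288, and they overlapped 175 of the 279. With the unamplified input of the second ChIP in place of the rule's own input there were 185, which overlapped 142.

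CD1, an outbred mouse strain, supplied the embryos, whose forebrains were dissected at embryonic day 11.5 and pooled, with 36 pieces behind each ChIP library. There were 4 libraries and 1 per group: the H3K4me3 ChIP, the input of that ChIP, the ChIP of trimethylated lysine 36 of histone H3 (H3K36me3), and the input of that second ChIP. The H3K4me3 ChIP and its input had both passed through 8 cycles of whole-genome amplification (WGA), while the H3K36me3 ChIP and its input had not, so the mark and the amplification cannot be told apart. Input is DNA of the same fixed and sonicated chromatin without immunoprecipitation. With 1 library per group there is no spread between replicates, and each test below compares 2 libraries by their tags, not 2 conditions. The forebrain was used whole, so the cell types that carry a mark cannot be told apart.

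H3K4me3 is laid down by SET1 and MLL family enzymes around the start sites of active genes and, together with H3K27me3, at the start sites of many silent developmental genes. Most start sites carry it over a short stretch, and broad stretches are known from genes that define a cell's identity. H3K36me3 is deposited by SETD2, which travels with elongating RNA polymerase II, and so lies over the bodies of transcribed genes, usually low at the start site. Positions below are in the mouse build mm8. No genome or annotation of that build was used here, so regions are given by position and without gene names or sequence.

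After repeated tags were collapsed, the autosomes held 7311596 tags of the H3K4me3 ChIP, 2432167 of its input, 10304603 of the H3K36me3 ChIP and 22529248 of the unamplified input. This is 3.09, 1.03, 4.35 and 9.51 tags per covered kb, where a stretch of 10 kb counts as covered if the unamplified input has any tag in it. The H3K4me3 input is thus the thinnest library, and the median broad region held 3 of its tags (range 0 to 24). Ratios of H3K4me3 to input therefore have wide intervals. H3K36me3 ratios rest on a median of 93 unamplified input tags per broad region (range 16 to 375).

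Most broad regions only just met the width rule. There were 183 of 4 kb, 59 of 5 kb, 16 of 6 kb and 9 of 7 kb, and 12 were wider. Together they spanned 1322 kb, which is 9.76% of the width of all H3K4me3 regions, and held 10.8% of the H3K4me3 tags in regions. Their tags per region ranged from 76 to 1931, with a median of 211. The 183 regions just inside the width rule held a median of 182 tags, or 45.5 per kb, and the 910 regions of 3 kb just outside it held 131, or 43.7 per kb. These values chose the regions and are given as a description.

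The widest region, chr13:84188001-84215000, stood apart in length. Over its 27 kb it held 1931 H3K4me3 tags, 29.2 times the scaled input (exact 95% interval 19.2 to 46.7), whose own tags numbered 22. Its H3K4me3 did not form 1 peak. Counted from the lower-coordinate edge, the second kb held 128 tags, the eighth and ninth 116 each, the fifteenth 145, and the nineteenth and twentieth 201 and 164. Of the other bins 1 held 8 tags, the seventeenth, and the rest held 28 to 72. The seventeenth kb, for its few tags, and the fourth, with 46 ChIP and 4 input tags, did not meet the bin rule.

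The next in width was chr12:50258001-50272000 at 14 kb, with 559 H3K4me3 tags and a tallest bin of 92. It was long but low, at 39.9 tags per kb, below the median of 48.3 for broad regions. The 12 kb region chr7:79372001-79384000 was the reverse, with 927 tags, 77.3 per kb and a tallest bin of 230, its bin 3. The other 12 kb region, chr13:78656001-78668000, held 568 tags spread between 25 and 83 per bin apart from 1 bin with 1 tag. The region of 11 kb, chr2:115753001-115764000, had no bin below 30 tags and none above 91. The region of 10 kb, chr7:70231001-70241000, held 425 tags with its tallest bin, of 76, at the lower-coordinate edge. Among these widest regions a longer one was not always a taller one.

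**Figure D1:**
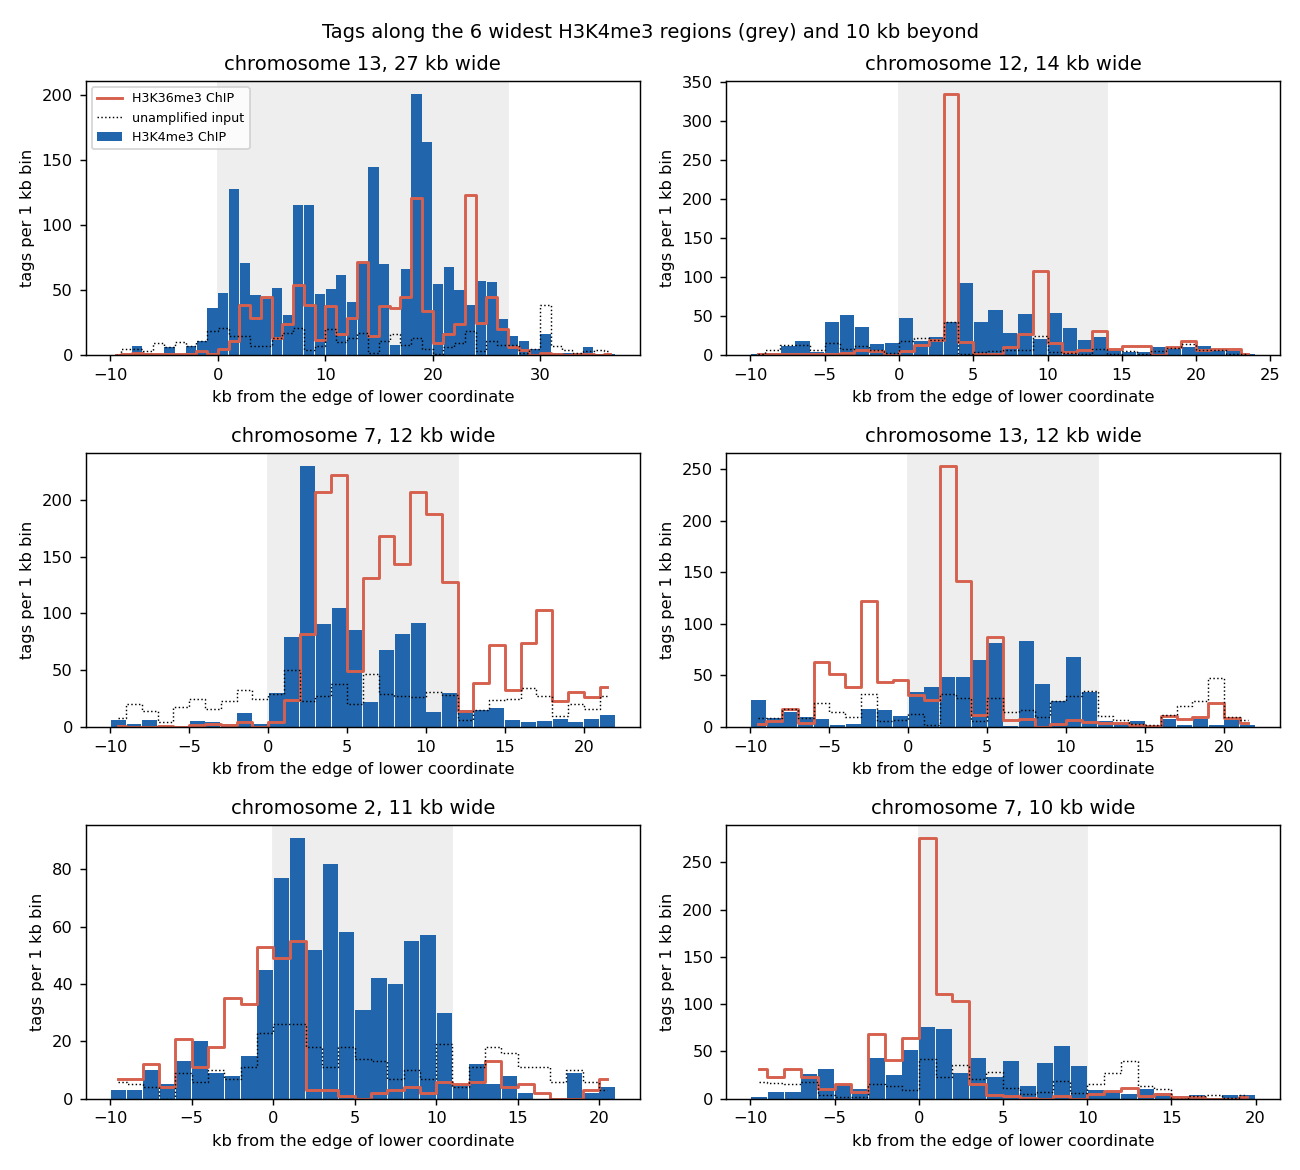
Tags per 1 kb bin (vertical axis) by distance from the edge of lower coordinate (horizontal axis, kb) in the 6 widest H3K4me3 regions (grey) and 10 kb beyond each edge. Bars are the H3K4me3 ChIP, the red line is the H3K36me3 ChIP and the dotted line the unamplified input, as raw tags of libraries of different depth. In the 27 kb region H3K36me3 is low beyond both edges, while in the 11 and 10 kb regions H3K36me3 fills only the side of lower coordinate.

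The regions with the most H3K4me3 tags per kb were shorter. They were chr9:41331001-41337000 with 110.0 tags per kb, chr2:50967001-50971000 with 107.8, chr19:5798001-5803000 with 105.8, chr4:108330001-108334000 with 103.5 and chr10:36824001-36831000 with 102.3. The chromosome 10 region carried 327 of its 716 tags in the fourth of its 7 bins, the tallest bin of any broad region. At the other end of the scale, 1 broad region held 19 tags per kb. Regions of 3 kb ran from 16.7 to 185 tags per kb, past the broad regions at both ends.

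Inside broad regions H3K4me3 was uneven. The tallest bin held a median of 38.5% of a region's tags (interquartile range 32.7% to 45.5%). A single local maximum at 1 kb resolution was found in 80 regions, 2 maxima in 171 and 3 or more in 28. The tallest bin lay at an edge in 92 regions, or 33.0%, while edge bins made up a mean of 44.9% of a region's bins. The rule places edges next to bins that failed it, and these shapes are a description. Gap bins, which were bridged when bins were joined, occurred in 124 regions. Of the 132 such bins 113 held fewer than 20 ChIP tags, and 19 failed because the input was high. Most tags in gap bins were found in chr7:79372001-79384000 (118 tags in 2 bins), chr11:21899001-21904000 (68 in 2 bins) and chr17:27634001-27638000 (55 in 1 bin).

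H3K36me3 took no part in choosing the regions, and it was called inside broad H3K4me3 regions more often than inside H3K4me3 regions in general. It was called, at an adjusted p under 0.05 by a one-sided exact binomial test and at least 1.5 times the scaled input, in 71 of 279 broad regions, or 25.4% (exact binomial 95% interval 20.4% to 31.0%). Of all H3K4me3 regions tested, 2.92% were called (228 of 7795). The median ratio of H3K36me3 ChIP to scaled input was 0.470 in broad regions (interquartile range 0.142 to 1.63) and 0.125 in all regions. With the input scaled on background bins, a smaller scale, it was called in 49.5% of broad regions and 10.3% of all tested. With the thinner WGA input as the reference, 209 broad regions could be tested and 99 of these were called. Those 99 are 35.5% of the 279. Of the 1322 regions of every width that could be tested, 344 were called (26.0%). The 35.5% counts untested regions as not called, so it cannot be set beside the 26.0%. The ratio to the unamplified input, scaled by library totals, was under 0.1 in 50 broad regions (17.9%, against 43.5% of all). It was 5 or more in 24 (8.60%, against 0.813% of all).

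By width, the share was 0.924% among the 4114 regions of 1 kb, 2.75% among the 2688 of 2 kb and 4.95% (3.63% to 6.56%) among the 910 of 3 kb. At 4 kb it was 16.4% (11.3% to 22.6%), at 5 kb 39.0% (26.5% to 52.6%) and at 6 to 7 kb 28.0% (12.1% to 49.4%). Of the 12 regions with a width of 8 kb or more, 11 were called (91.7%, 61.5% to 99.8%), and the exception was chr17:10157001-10165000, with a ratio of 0.437 (0.239 to 0.754). The intervals of 5 kb and 6 to 7 kb overlap. Those of 3 and 4 kb, of 4 and 5 kb, and of 6 to 7 kb and the widest class do not.

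A longer region holds more tags and passes a test on tags more easily, so the same 3 kb window at the midpoint of every region was tested too. In that window H3K36me3 was called in 63 broad regions, or 22.6% (17.8% to 27.9%), against 5.2% of all regions tested. It was called in 48 regions of 3 kb (5.27%, 3.91% to 6.93%), in 28 regions of 4 kb (15.3%, 10.4% to 21.3%) and in 19 of 5 kb (32.2%, 20.6% to 45.6%). At 6 to 7 kb it was called in 9 of 25 (36.0%, 18.0% to 57.5%), and in the 12 widest in 7 (58.3%, 27.7% to 84.8%). In this window the intervals of 3 and 4 kb did not overlap. Those of 4 and 5 kb did, as did those of 6 to 7 kb and the widest class. At 1 and 2 kb, where the window reaches beyond the region, the shares were 3.91% and 5.32%. Within a narrower 1 kb window at the midpoint 33 broad regions were called (11.8% of the 279, 249 tested), against 1.84% of all tested. Within the 1 kb bin of most H3K4me3 tags H3K36me3 was called in 44 broad regions (15.8%, 254 tested), against 2.66% of all tested. Without the 12 widest, 22.5% of broad regions had H3K36me3 called inside, and the ratio of pooled tags was 1.38 in place of 1.73. Of the 6 widest regions 5 were among the 9 with the most H3K36me3 tags.

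**Figure D2:**
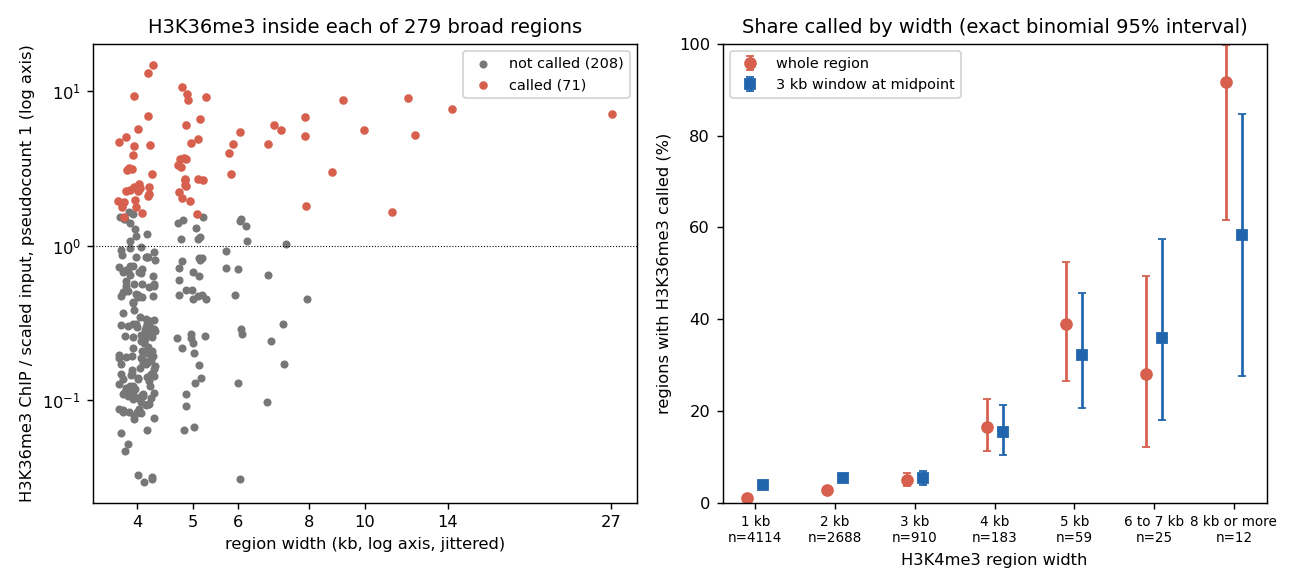
Left, the ratio of H3K36me3 ChIP to scaled unamplified input, pseudocount 1 (log axis), against width (log axis) for each of the 279 broad regions, with the 71 called regions in red. Right, the percentage of H3K4me3 regions with H3K36me3 called, by width, in the whole region (circles) and in a 3 kb window (squares), with exact binomial 95% intervals. Called regions appear at every width from 4 kb, and the share is 4.95% at 3 kb and 16.4% at 4 kb.

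The regions with the most H3K36me3 over input were not the widest. The ratio was 15.9 (10.8 to 24.1) in chr1:42643001-42647000, with 218 ChIP tags against 30 input tags, and 13.5 (10.9 to 16.7) in chr3:88300001-88304000, with 634 against 103. It was 10.95 (8.77 to 13.8) in chr14:121611001-121616000, 9.79 (8.16 to 11.8) in chr12:12963001-12968000 and 9.51 (7.71 to 11.8) in chr19:44347001-44351000. All of these regions measured 4 or 5 kb. Among the widest, the ratios were 7.14 (6.27 to 8.16) in the 27 kb region, 7.79 (6.55 to 9.30) in the 14 kb region and 9.06 (8.09 to 10.2) in the chromosome 7 region of 12 kb.

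At the other extreme 7 broad regions held no H3K36me3 tag at all. The depth limits what these zeros show. In chr14:49985001-49989000, with 72 input tags, the interval allows a ratio of up to 0.115, and in chr2:91983001-91987000, with 65, of up to 0.128. The regions chr4:116053001-116057000 and chr2:122066001-122070000 had upper bounds of 0.120 and 0.124. The bounds were looser in chr10:67672001-67676000, at 0.187 and named after its values were seen, and in chr2:6799001-6803000, at 0.567 with 16 input tags. In the 6 kb region chr13:21174001-21180000 the bound was 0.120 despite 292 H3K4me3 tags. H3K36me3 in these regions was not detectable at this depth.

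The 71 regions with H3K36me3 called inside were compared with the other 208. Their median width was 5 kb against 4 kb, their median H3K4me3 was 52.8 tags per kb (interquartile range 42.1 to 66.5) against 45.9 (35.0 to 58.3), and the unamplified input stood at 2.29 times its autosomal mean against 2.18. The interquartile ranges overlapped for each. In the 71 regions the pooled H3K36me3 ratio was 4.68 in the tallest H3K4me3 bin and 4.71 in the other bins, and 46 of the 71 had fewer H3K36me3 tags in the tallest bin than in their average other bin. That count takes no account of the input, which was higher in the tallest bin at 28 of the 71. Among the other 208 regions 105 had fewer H3K36me3 tags in the tallest bin, and the input was higher there at 109.

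At 1 kb resolution, how the raw tags of the marks lay against each other differed among the widest regions. In the 14 kb region of chromosome 12, 334 of 595 H3K36me3 tags lay in the fourth kb and 108 in the tenth. The tallest H3K4me3 bin, bin 5, held 17. The unamplified input was also high in bins 4 and 10, with 43 and 24 tags where the autosomal mean is 9.51. It held 2 tags in bin 5, and its part in the height of these bins was not tested. As a ratio to the scaled input, H3K36me3 stood at 17.0 in bin 4, 18.6 in bin 5 and 9.84 in bin 10. By this ratio H3K36me3 was not lower in the tallest H3K4me3 bin, where the ratio rests on 2 input tags. In the 27 kb region the nineteenth kb had the most H3K4me3 tags, 201, and nearly the most H3K36me3 tags, 121 against 123 in the twenty-fourth kb. In the chromosome 7 region of 12 kb the first 2 bins held 4 and 24 H3K36me3 tags, and bin 3, the tallest for H3K4me3, held 82. H3K36me3 then stood between 49 and 222 to the far edge.

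H3K36me3 was often unequal between the 2 sides of a broad region. When each region was divided at its midpoint into 2 equal parts, the parts differed in H3K36me3 relative to input in 124 of 279 broad regions by a two-sided Fisher exact test with adjusted p under 0.05. That is 44.4% (38.5% to 50.5%), against 18.6% of all H3K4me3 regions of at least 2 kb tested and 28.6% (25.7% to 31.6%) of those of 3 kb. At 4 kb the share was 36.6% (29.6% to 44.0%), whose interval overlaps that of 3 kb. Wider regions hold more tags, which this test does not equalise. The richer part was the one of higher coordinate in 64 and of lower coordinate in 60. Of the 83 with H3K36me3 called in exactly 1 flank, the richer part faced that flank in 80, as it did in 172 of 175 such regions of 3 kb and 217 of 230 of 2 kb. With the thinner WGA input in place of the unamplified one, 21 broad regions were called, and 32 of the 1118 regions of every width that could be tested (2.86%).

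The steps could be sharp. In chr10:36824001-36831000 H3K36me3 stood at 27, 141, 116 and 34 tags in the first 4 kb and at 0, 1 and 0 in the last 3, and the tallest H3K4me3 bin was the fourth. In chr7:70231001-70241000 the first 3 bins held 276, 111 and 103 H3K36me3 tags and the last 5 held at most 3 each, while H3K4me3 continued at 13 to 56 tags per bin. In chr2:115753001-115764000 it stood at 49 and 55 tags in the first 2 bins and at 3 in the next, and H3K4me3 ran on for 9 kb. In these regions broad H3K4me3 covered both the place where H3K36me3 fell and a stretch of several kb where its tags were few.

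The regions were then set against their flanks, taken as 1 to 11 kb beyond each edge. H3K36me3 was called in exactly 1 flank of 163 broad regions, or 58.4% (52.4% to 64.3%), against 57.9% of all H3K4me3 regions. Both flanks were called at 68, or 24.4% (19.5% to 29.8%), against 18.8%, and neither at 48, or 17.2% (12.97% to 22.2%), against 23.3%. Among regions of 3 kb these shares were 57.4%, 27.03% and 15.6%. The share with 1 called flank was near the background. That with both was above it and that with neither below it, and the shares of 3 kb regions lay within the intervals of the broad ones. These differences were smaller under some alternatives. With the WGA input, both flanks were called at 19.7% against 17.4% of all, and neither at 27.6% against 29.8%. With flanks of 1 to 21 kb the shares were 24.4% against 24.1% and 18.6% against 20.8%. With the input scaled on background bins, both flanks were called at 159 broad regions (57.0%, against 41.2% of all) and neither at 5 (1.79%, against 4.37%). The called flank was that of higher coordinate at 89 regions and of lower coordinate at 74.

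The flanks of some regions differed steeply. At chr7:28517001-28521000 the ratio was 0.230 (0.133 to 0.375) on the side of lower coordinate and 15.4 (13.4 to 17.8) on the other. At chr19:44347001-44351000 it was 0.200 (0.112 to 0.334) and 14.1 (12.0 to 16.5), and at chr5:143225001-143229000 0.115 (0.0583 to 0.204) and 13.8 (12.1 to 15.8). Facing the other way, chr7:73429001-73434000 had 15.4 (10.7 to 22.96) and 0.209 (0.108 to 0.370), and chr1:182648001-182652000 had 15.4 (12.4 to 19.3) and 0.281 (0.145 to 0.503). The highest flank of all lay beside chr7:29614001-29618000, at 24.3 (20.4 to 29.2), with 8.08 (6.62 to 9.93) on its other side. Inside that region 1 H3K36me3 tag was found where the input had 49, which gives 0.0446 (0.00111 to 0.261).

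**Figure D3:**
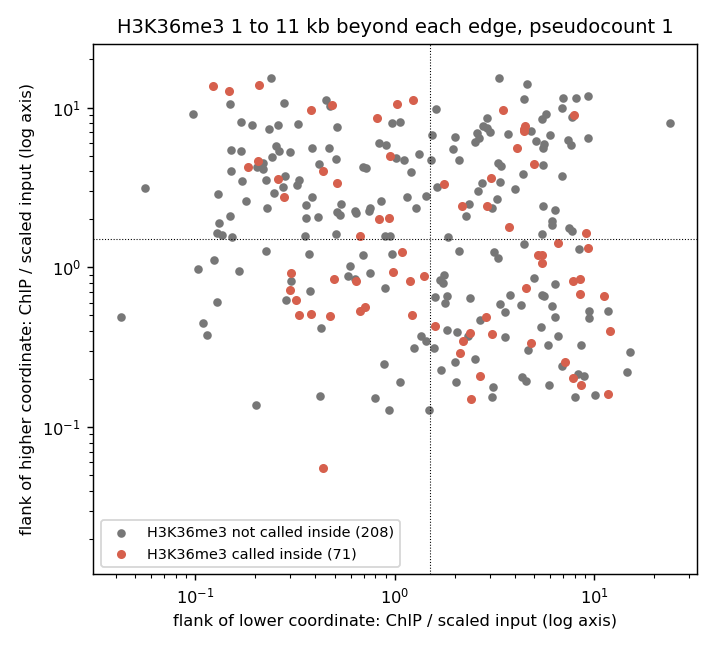
The ratio of H3K36me3 ChIP to scaled unamplified input, pseudocount 1, in the flank of lower (horizontal) and of higher coordinate (vertical) of each broad region, both on log axes, with dotted lines at 1.5. Red points are the 71 regions with H3K36me3 called inside, and they lie among the grey ones in all 4 corners, 16 of them with neither flank called.

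Regions with and without H3K36me3 called inside were then compared by their flanks. Exactly 1 flank was called at 42 of the 71 regions with H3K36me3 called inside (59.2%, 46.8% to 70.7%). The same held at 121 of the 208 regions not called inside (58.2%, 51.2% to 65.0%). Neither flank was called at 22.5% (13.5% to 34%) and 15.4% (10.8% to 21.02%) of them, and the intervals overlap. In the 42 regions, taken from the side of the called flank in 4 equal parts, pooled H3K36me3 tags stood at 17.1, 14.3, 10.1 and 2.65 times the autosomal mean, after 12.6 times in the last kb before the edge and with 1.20 times in the first kb beyond the far edge. The medians over the 42 regions were 12.3, 11.4, 4.25 and 0.735 times in the 4 parts. In the 121 regions the same parts stood at 1.79, 1.23, 0.527 and 0.323 times, after 5.57 times in the second kb and 2.92 times in the first kb before the edge. The medians over the 121 regions were 0.919, 0.460, 0.184 and 0.153 times in the 4 parts. As ratios to the scaled input, the 4 parts stood at 9.26, 6.44, 3.97 and 1.15 in the 42 regions and at 1.17, 0.504, 0.199 and 0.164 in the 121. The 522 regions of 3 kb with 1 called flank had 2.41, 1.38, 0.579 and 0.399 times in their 4 parts. As the interior call sets the level inside, these profiles describe the classes and test nothing.

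H3K4me3 was also counted in the 2 equal parts of the same regions. In the 121 regions without H3K36me3 called inside, the part facing the called flank held 1.23 times the H3K4me3 tags of the other. It was the richer at 74 and the poorer at 46. In the 42 regions called inside the ratio was 0.909, with 20 richer and 22 poorer. In regions of 3 kb with 1 called flank it was 1.29. The region rule set the H3K4me3 level inside and at the edges, so these values are a description.

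**Figure D4:**
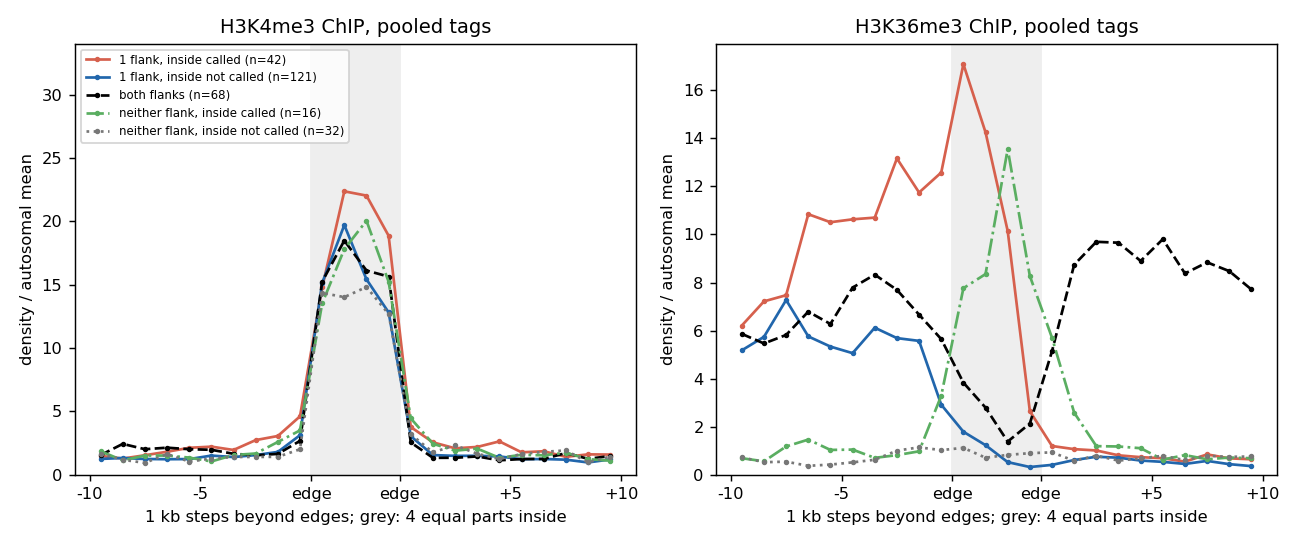
Pooled tags of the H3K4me3 ChIP (left) and the H3K36me3 ChIP (right) over the autosomal mean (vertical axes) along broad regions grouped by H3K36me3 calls inside and in flanks, in 1 kb steps beyond the edges and in 4 equal parts inside (grey). Regions with 1 called flank are turned so that this flank is on the left, and n is the number of regions. H3K36me3 runs on into the grey stretch at the 42 regions called inside and is down to 1.79 in the first part inside at the 121 others.

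Among the 71 regions, 16 had H3K36me3 called inside and in neither flank, a class that held 34 of all 7991 H3K4me3 regions. They included the 27 kb region, with flank ratios of 0.452 (0.221 to 0.852) and 0.483 (0.268 to 0.824) around an interior of 7.14, and chr14:121611001-121616000, with 0.290 (0.177 to 0.454) and 0.719 (0.512 to 0.996) around 10.95. The 8 kb region chr3:34841001-34849000 had 1.20 (0.879 to 1.62) and 0.820 (0.624 to 1.07) around 6.95 (5.605 to 8.67). In chr5:4761001-4765000 the interior ratio was 2.19 (1.73 to 2.76), made up of 3.67 in the part of lower coordinate and 0.493 in the other. The median interior ratio of the 16 was 3.72, and their median width was 5 kb. The class depends on the scale of the input. With the input scaled on background bins, each of the 4 regions named here had at least 1 flank called, and neither flank was called at 5 broad regions in all. A further 32 regions had H3K36me3 called neither inside nor in a flank. These had the lowest median H3K4me3 of the 6 combinations, 37.4 tags per kb.

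Where both flanks were called, 13 regions had H3K36me3 called inside and 55 did not. Pooled H3K36me3 in these 68 regions stood at 6.66 times the autosomal mean in the second kb before the lower-coordinate edge, at 3.84, 2.79, 1.38 and 2.13 times in the 4 parts and at 8.74 times in the second kb beyond the other edge. The medians over the 68 regions were lower, at 0.506, 0.460, 0.460 and 0.689 times in the 4 parts. In the same second kb before and beyond the edges they were 2.99 and 3.45 times. An example of the 55 was chr4:116053001-116057000, with no tag inside and 3.56 (2.16 to 5.98) and 3.55 (2.45 to 5.202) beside it. With the WGA input as the reference neither of its flanks was called. Of the opposite kind was chr3:88300001-88304000, with 13.5 inside and 4.49 (3.79 to 5.33) and 7.35 (6.45 to 8.39) beside it. The nearest other H3K4me3 region lay closer to regions with both flanks called than to those with 1 called flank. Without and with H3K36me3 called inside, the medians were 31 and 8 kb for both flanks and 136 and 66 kb for 1.

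The level to which H3K36me3 was compared was itself raised inside broad regions. The unamplified input stood at a median of 2.21 times its autosomal mean (interquartile range 1.79 to 2.72) and was above the mean in 269 of 279. The WGA input, on which the region rule sets a limit, was above its mean in 67. The unamplified input was higher still in shorter regions, with medians of 2.94 at 1 kb, 2.58 at 2 kb and 2.38 at 3 kb. Its part in the H3K36me3 ratios was not tested. In tags without any input, H3K36me3 stood at a median of 0.919 times its autosomal mean in broad regions, 0.460 times in regions of 3 kb and 0.230 times in those of 1 kb.

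**Figure D5:**
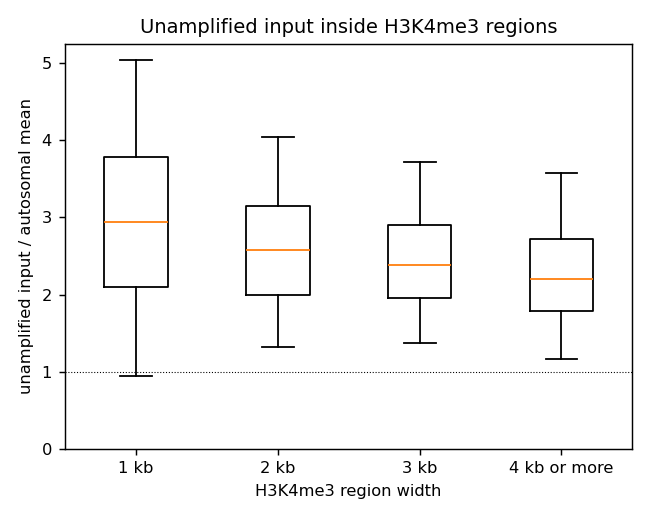
Unamplified input inside H3K4me3 regions over its autosomal mean (vertical axis) by region width; boxes show the median and interquartile range over regions and whiskers the 5th and 95th percentiles. The medians fall from 2.94 at 1 kb to 2.21 at 4 kb or more, all above the dotted line at 1.

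The highest input density lay in chr9:3015001-3020000, at 5.72 times the mean (exact Poisson 95% interval 5.06 to 6.44), a region with a low H3K4me3 ratio of 6.61 (3.27 to 15.6) and no H3K36me3 called inside (0.675, 0.522 to 0.865) or in a flank. It was followed by chr5:143225001-143229000 at 4.47 (3.82 to 5.19), chr5:23933001-23937000 at 4.39 (3.75 to 5.11), chr19:5728001-5732000 at 4.10 (3.48 to 4.80) and chr5:4761001-4765000 at 3.99 (3.38 to 4.68). The lowest were chr2:6799001-6803000 at 0.420 (0.240 to 0.683), chr6:6818001-6822000 at 0.604 (0.383 to 0.907) and chr1:170265001-170269000 at 0.657 (0.425 to 0.970). The last of these held 325 H3K4me3 tags, 81.3 per kb.

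Broad regions were scattered over all 19 autosomes. There were 0.118 per covered Mb (exact Poisson 95% interval 0.104 to 0.132). Chromosome 3 held the most, 25. Per Mb chromosome 19 stood highest, with 12 regions or 0.207 per Mb (0.107 to 0.361), and chromosome 15 lowest, with 7 or 0.0697 per Mb (0.0280 to 0.144). The chromosomes' intervals overlapped, and the counts do not set the chromosomes apart. Of all H3K4me3 regions, 5.90% (3.85% to 8.58%) were broad on chromosome 3 and 2.16% (1.04% to 3.93%) on chromosome 9. Chromosome 11, with the most H3K4me3 regions per Mb, had 19 broad ones, 2.87% (1.74% to 4.45%) of its regions.

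The nearest other broad region lay a median of 2755 kb away, and 16 regions had one within 100 kb. The nearest H3K4me3 region of any width was at a median of 67 kb (interquartile range 21 to 256), against 49 kb for all regions and 59 kb for those of 3 kb. An H3K4me3 region within 100 kb was found for 57.0% (51.0% to 62.9%) of broad regions, 65.6% (62.4% to 68.7%) of those of 3 kb and 70.1% of all. Within 10 kb the order differed, with 14.7% (10.8% to 19.4%) of broad regions, 9.67% (7.83% to 11.8%) of those of 3 kb and 13.4% of all. Some broad regions stood far from any other, such as chr17:10157001-10165000 at 1515 kb and chr18:55111001-55119000 at 1122 kb.

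The 5 closest pairs were compared for H3K36me3. Where the gap is under 11 kb, the facing flank of each takes in part of the other. On chromosome 1 a gap of 2 kb, just over the joining rule, separated chr1:42634001-42641000 from chr1:42643001-42647000. The former had an H3K36me3 ratio of 0.639 (0.396 to 0.998) and the latter 15.9, the highest of all. On chromosome 3 the pair 3 kb apart had 5.0 (4.0 to 6.28) in chr3:88292001-88297000 and 13.5 in its neighbour, and the part facing the neighbour carried 8.71 against 1.23 in the other. On chromosome 7, H3K36me3 lay between the pair chr7:73411001-73416000 and chr7:73429001-73434000. The gap of 13 kb makes the facing flanks nearly the same stretch, and its ratio was 16.4 (11.3 to 24.3) as the flank of the former and 15.4 (10.7 to 22.96) as that of the latter. The interiors stood at 1.57 (0.878 to 2.77) and 0.820 (0.490 to 1.33).

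On chromosome 2, 15 kb separated chr2:17943001-17947000, with 0.158 (0.0743 to 0.300) inside, from chr2:17962001-17967000, with 3.74 (2.82 to 4.997). On chromosome 14 the pair chr14:49985001-49989000 and chr14:50010001-50014000, 21 kb apart, had no H3K36me3 called inside or in a flank. Inside, the former held no tag and the latter stood at 0.133 (0.0351 to 0.356), and the 4 flanks ranged from 0.0967 to 0.367. Among the pairs, H3K36me3 was thus called inside both regions, 1 or neither.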

How the data were processed

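ChIP-seq tag lists of 4 libraries, 1 per group, were used. Each list that the authors deposited gives a chromosome, a position and a sign per line, with mm8 as the build per the submitters' processing notes. The deposited positions carry no score, count or normalised value, and were taken as counted from 0, which no source states. No source used here gives the aligner or read length. The deposited lists are named as unique hits. The H3K4me3 input list held repeats, up to 1380 copies; keeping 1 tag per position and sign removed 27.7% of its autosomal tags, and 0 in the other lists.

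Tags were shifted 75 bp along their sign. The H3K4me3 input was scaled by 3.027 and the unamplified input by the ratio of autosomal totals, 0.457. The H3K4me3 ratios printed for single regions use the ratio of totals, 3.01. Tests needed 10 tags of both libraries together, with Benjamini-Hochberg adjustment over all H3K4me3 regions, or over all flanks. Calls use a pseudocount of 1; printed ratios do not, and carry exact Clopper-Pearson 95% intervals. Intervals cover counting error only. Pooled ratios have none. Python 3.11.15, numpy 2.4.6, pandas 2.3.3, scipy 1.17.1 and matplotlib 3.10.9 were used, and the tests were tested on simulated data.

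Regions were named from the 15 widest, the 5 with most H3K4me3 tags per kb, the 5 highest and 5 lowest in H3K36me3 inside, the 5 highest and 3 lowest in unamplified input, the 3 with the largest flank difference each way, the 3 with most tags in gap bins and the 5 closest pairs. The regions and lists were chosen with earlier results of these data known. The single-region examples of profile steps were picked after their values were seen. Alternatives covered the bin grid, shift, thresholds, joining, input, scaling and windows.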

Additional observations from a re-analysis of the deposited data

Results flagged for a closer look

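The X chromosome, which the region rule leaves out, held 7 H3K4me3 regions of at least 4 kb by the same rule, above the level of the input, among 286 regions there (2.45%, against 3.49% on the autosomes). All 7 measured 4 kb. The one with the most H3K4me3 tags, chrX:147142001-147146000, had 286 against 3 input tags, a ratio of 31.7 (10.7 to 155), and an H3K36me3 ratio of 0.729 (0.377 to 1.33). The highest H3K36me3 ratio, 5.18 (4.06 to 6.65), was that of chrX:95339001-95343000. With these 7 added to the 279 autosomal broad regions, H3K36me3 was called inside 74 of the resulting 286 broad regions. Among the 279 alone it was called inside 71.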

How the results depend on the processing

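Which regions count as broad depends strongly on the bins. With bins moved by 0.5 kb there were 288, and these overlapped 175 of the 279. At least 30 tags per bin left 121, a ratio of at least 8 left 144, no joining over gaps 174, and the unamplified input in place of the WGA input 185, of which 142 of the 279 were overlapped. The other alternatives gave 235 to 390. H3K36me3 was called inside 28.9% of those 142, inside 25.7% of the 268 kept with the input's repeats, and, over whole or trimmed regions, inside 60 to 99 broad regions under the alternatives other than scaling. The 60 came with a minimum ratio of 2, at 21.5% of broad regions against 2.62% of all tested. The 99 came with the WGA input, out of 209 broad regions that could be tested. Of the 1322 regions of every width tested with it, 344 were called (26.0%). Trimming was applied only to regions of at least 3 kb. Over trimmed regions H3K36me3 was called in 62 broad regions (22.2%). Of the 1168 such regions tested, broad ones included, 91 were called (7.79%). Scaling the input on background bins, at 0.111 in place of 0.457, called H3K36me3 inside 49.5% of broad regions (against 21.1% at 3 kb and 4.4% at 1 kb) and in the 3 kb window of 41.2%, with both flanks called at 159 and neither at 5. A 1 kb window at the midpoint called 11.8%, with fewer tags per test. With the WGA input neither flank was called at 77 (27.6%, against 29.8% of all), and 21 regions had unequal parts. Of the named regions, the lower-coordinate flank of chr4:116053001-116057000 fell to 0.868 with the WGA input and the higher-coordinate flank of chr13:21174001-21180000 to 0.156 at 1 to 6 kb; the cause was not tested. The percentage with another such region within 100 kb was 2.08% for a minimum width of 5 kb and 18.5% for 3 kb. Leaving out a replicate was not possible with 1 library per group. No paired analysis was possible because no group has more than 1 sample.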
